A study of Mus musculus with 2 samples.

Results

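The genes examined here encode 8 cathepsins (Ctsb, Ctsc, Ctsd, Ctsh, Ctsk, Ctsl, Ctss and Ctsz) and 2 cystatins (Cst3 and Cst7). They were taken by gene symbol from the gene lists of the single-cell matrices, without regard to their values. All 10 were found in each library, among 29217 genes listed in at least 1 library. The cells came from brain tissue of Balb/c mice in a model of brain metastasis by 4T1, a mouse mammary carcinoma line of the triple-negative type (TNBC). There were 2 libraries, called control-titled and positive-titled here after their sample titles, and no age, sex or number of animals is given in the labels. The treatment field goes against these titles: it gives metastasis of 4T1 for the control-titled library and none for the other. No direction with or without metastasis is therefore drawn. Each group is 1 library, so nothing was tested against replicate spread, and every interval below covers counting error only.

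Cathepsins are the proteases of lysosomes, acidic compartments in which proteins taken up or discarded by the cell are degraded. Most are cysteine proteases, Ctsd is an aspartic protease, and cystatins are tight-binding inhibitors of the cysteine cathepsins. In the brain, microglia and macrophages are known for high cathepsin expression, and cystatin C, the product of Cst3, is a secreted protein made by microglia, astrocytes and neurons.

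Promoter sequences are shown for 4 genes: Ctss and Ctsk, which are neighbours on 1 chromosome but had unlike patterns over the cell classes, and Ctsc and Cst7, which were both higher in the microglia-like cells of 1 library. Each is the 250 bases before the RefSeq start on the GRCm38.p6 assembly, printed 5′ to 3′ on the gene's strand. Ctss and Ctsk lie on chromosome 3 on the + strand, with 17423 bases between the end of the annotated Ctsk gene and the start of Ctss. Capitals mark a match to a form of the interferon-stimulated response element, in which the letters GAAA occur again after any 2 bases, or to GAGGAAGT, a form of the PU.1 and ETS-factor site.
Ctss, chr3:95526536-95526785, + strand: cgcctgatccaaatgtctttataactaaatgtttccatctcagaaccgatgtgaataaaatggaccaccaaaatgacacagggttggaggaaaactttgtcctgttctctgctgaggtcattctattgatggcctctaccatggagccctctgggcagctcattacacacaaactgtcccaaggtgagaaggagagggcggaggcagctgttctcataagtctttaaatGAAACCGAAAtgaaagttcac
Ctsk, chr3:95498960-95499209, + strand: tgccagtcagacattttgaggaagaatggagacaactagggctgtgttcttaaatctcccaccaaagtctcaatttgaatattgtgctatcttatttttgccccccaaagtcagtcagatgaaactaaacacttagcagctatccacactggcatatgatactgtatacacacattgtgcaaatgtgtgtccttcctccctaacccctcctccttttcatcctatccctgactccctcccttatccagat
Ctsc, chr7:88277835-88278084, + strand: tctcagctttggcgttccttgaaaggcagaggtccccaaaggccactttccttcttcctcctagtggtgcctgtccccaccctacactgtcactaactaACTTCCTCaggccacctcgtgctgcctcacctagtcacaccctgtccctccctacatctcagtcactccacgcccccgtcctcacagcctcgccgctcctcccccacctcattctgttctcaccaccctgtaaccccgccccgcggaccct
Cst7, chr2:150570165-150570414, + strand: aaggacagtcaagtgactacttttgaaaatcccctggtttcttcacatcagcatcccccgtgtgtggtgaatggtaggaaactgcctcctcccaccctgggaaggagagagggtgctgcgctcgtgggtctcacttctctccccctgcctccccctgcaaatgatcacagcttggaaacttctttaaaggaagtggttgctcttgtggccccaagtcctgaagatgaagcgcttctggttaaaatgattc

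The match in Ctss begins 21 bases before the start, and this form was found on either strand in 2.98% of 32851 promoter windows of the same length. In Ctsc the match lies on the reverse strand, with its first printed base 151 bases before the start, and GAGGAAGT was found in 2.44% of the windows. Ctsk and Cst7 hold neither. A RefSeq window was found for 8 of the 10 genes, and Ctsb and Ctsh had none. The E-box CACGTG, found in 6.02% of windows, matched Ctsd and Ctsl, and the AP-1 site TGACTCA, found in 4.46%, matched none of the 8. Another 7 forms were searched on both strands and are not used further: TCACGTGA (0.785% of windows) and the longer CLEAR element (0.24%), which hold the shorter E-box, the ETS-like letters AGGAAG (29.5%) and GAGGAA (23.3%), which overlap GAGGAAGT, the STAT-like form TTCCGGAA (0.591%), a stricter interferon response form (0.207%) and the general E-box CANNTG (66.2%). A match describes these letters only.

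Cells were grouped into classes by marker genes, and a class carries "like" because no annotation of the cells was used. After filtering, 9806 cells of the control-titled library and 10537 of the positive-titled library remained, with medians of 4230 and 7383.5 UMIs per barcode before filtering. A UMI is a tag that marks 1 captured RNA molecule. Carcinoma-like cells numbered 5896 in the positive-titled library and 1 in the control-titled library, counts that go with the titles and against the treatment field. The classes with at least 50 cells in both libraries were microglia-like (2373 and 645 cells, control-titled first throughout), monocyte or macrophage-like (216 and 2233), dendritic cell-like (60 and 85), T cell-like (60 and 200), oligodendrocyte-like (3562 and 841) and endothelial cell-like (523 and 74). UMIs were summed over a class and scaled to the class sum as CPM, and 149 barcode sequences occurred in both libraries.

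The microglia-like class was not made of the same clusters in the libraries, and this touches every result on it. In the control-titled library 2239 of its 2373 cells lay in cluster 3, and in the positive-titled library all 645 lay in cluster 24. All 10 microglia markers had UMIs in both, but they summed to 18260 CPM and 1733 CPM. P2ry12, a purinergic receptor of microglia, was at 6399 and 308 CPM, and Tmem119 at 1608 and 270 CPM. The 12 monocyte or macrophage markers summed to 1046 CPM in the former, with 1 of them at 0, and to 3218 CPM in the latter with none at 0. That is 2.96% and 20.2% of their level in the monocyte or macrophage-like class of the same library. Monocyte or macrophage-like cells came from clusters 7.0, 7.2 and 7.4 in the control-titled library and from cluster 27 and sub-clusters of cluster 25 in the positive-titled library.

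Carcinoma markers were spread over the classes of the positive-titled library. They reached 10.9% of their carcinoma-like level in microglia-like cells, 10.8% in monocyte or macrophage-like, 11.1% in oligodendrocyte-like, 8.47% in endothelial cell-like, 12.1% in dendritic cell-like and 32.2% in T cell-like cells. The share of free RNA estimated from markers of other classes was 7.36 to 18.9% in the compared classes of both libraries, apart from T cell-like cells of the positive-titled library, where it was 57.4%. The part of this RNA in each difference below was not tested beyond the values given.

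**Figure D1:**
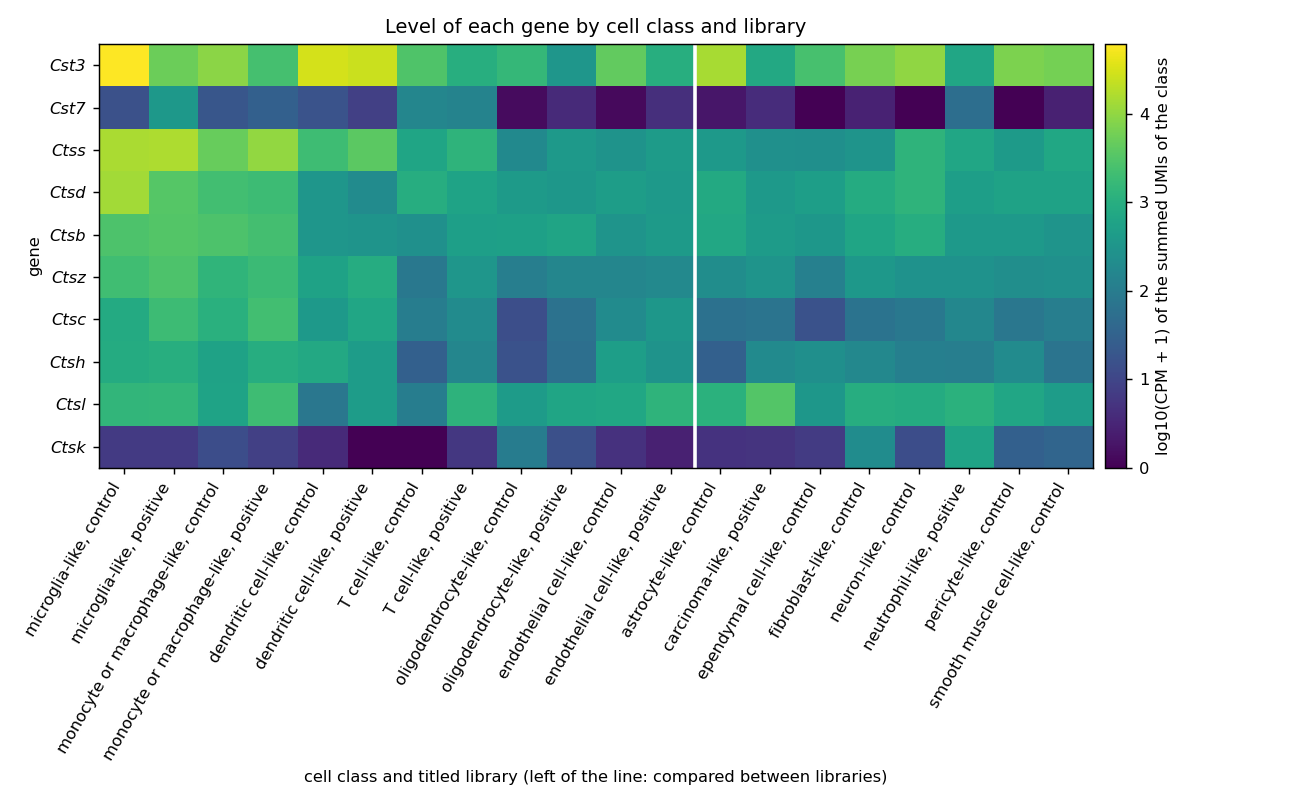
Level of the 8 cathepsin and 2 cystatin genes as log10(CPM + 1) of the summed UMIs in each cell class with at least 50 cells in a library; colours compare columns within a row, not genes. Cst3 is brightest in the microglia-like cells of the control-titled library (61117 CPM) and Ctsk is dark in most columns.

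In microglia-like cells, 2 of the 10 genes were past 2-fold higher in the positive-titled library, where 8.87% of all 10636 genes tested were, and 2 were past 2-fold lower, where 22.2% of all genes were. Past 2-fold means a log2 ratio of at least 1 in size with an interval that leaves out 0, and a gene was tested where it had 50 or more UMIs in the class over both libraries. In monocyte or macrophage-like cells 2 of 10 were higher (9.78% of all genes) and 1 lower (13.6%). In oligodendrocyte-like cells 2 of 9 were higher (11.6%) and 2 lower (15.5%). In T cell-like cells 4 of 9 were higher (12.6%) and 1 lower (8.21%). That count of 4 became 1 with doublets kept and 0 with free RNA subtracted at its estimated share. In dendritic cell-like cells 1 of 8 was higher (14.3%) and 0 lower (6.34%), and in endothelial cell-like cells 0 of 8 were higher (5.28%) and 1 lower (14.7%). The median log2 ratio of the genes tested here was 0.14 in microglia-like cells against -0.33 for all genes tested, 0.52 against -0.15 in monocyte or macrophage-like, 0.53 against -0.22 in oligodendrocyte-like, 0.94 against 0.08 in T cell-like, 0.28 against 0.22 in dendritic cell-like and 0.33 against -0.23 in endothelial cell-like cells.

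By gene, Cst3 was past 2-fold lower in the positive-titled library in 5 of the 6 classes, and in T cell-like cells this call was lost with free RNA subtracted at the estimated share (-0.39) and with each cell named by its own markers (-0.92). Ctsl was past 2-fold higher in 3 classes, Ctsc, Ctsh and Ctss in 2 each, and Ctsz and Cst7 in 1 each. Ctsd and Ctsk were past 2-fold lower in 1 class each, and Ctsb was past 2-fold in 0 of 6. Over all genes with 50 or more UMIs in each library the ratios had a median log2 ratio of -0.13 in microglia-like, -0.15 in monocyte or macrophage-like and -0.18 in oligodendrocyte-like cells, and of -0.10, 0.07 and 0.04 in T cell-like, dendritic cell-like and endothelial cell-like cells. Relative to these medians, the ratios named below keep their direction, with Cst3 at -3.44 in microglia-like cells, -1.73 in monocyte or macrophage-like and -2.03 in oligodendrocyte-like cells.

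**Figure D2:**
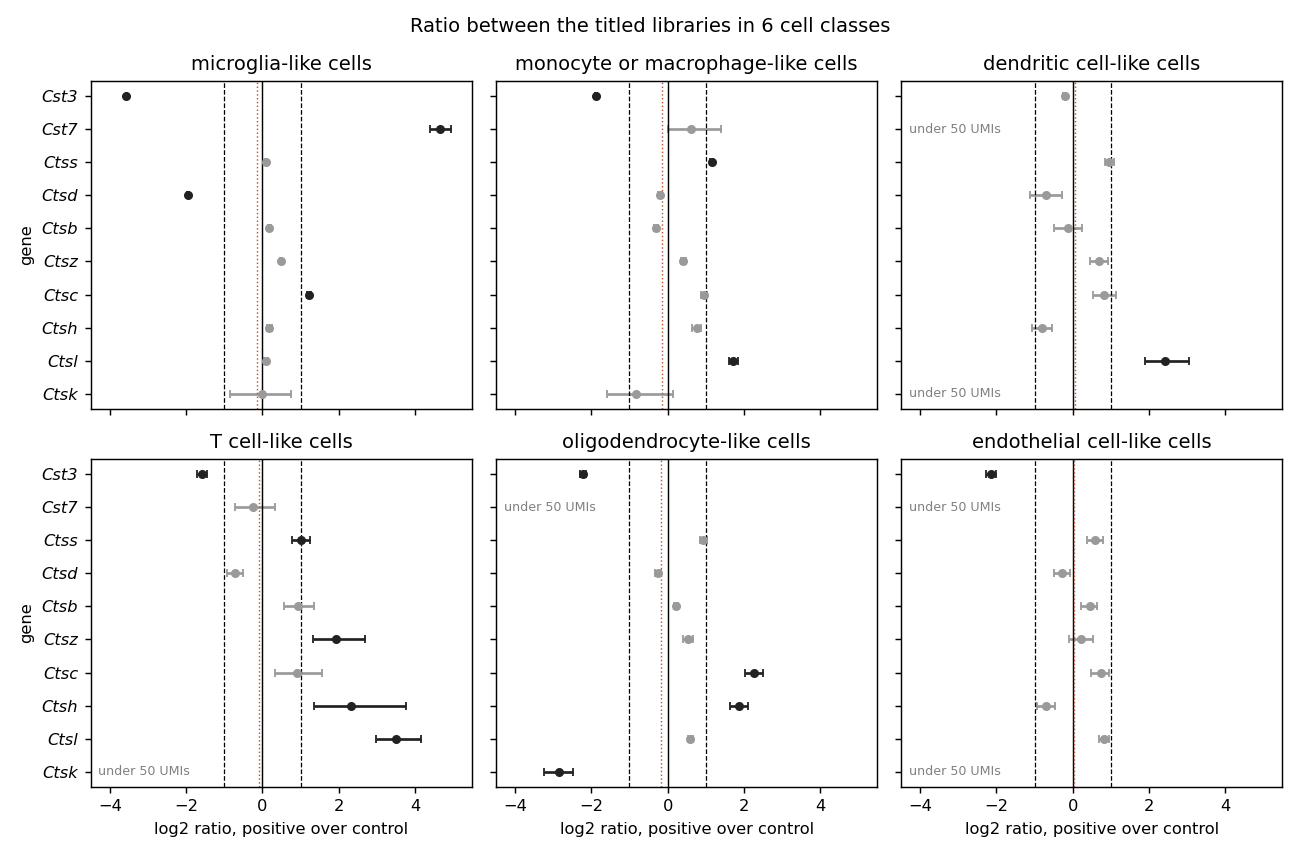
Log2 ratio of positive-titled over control-titled for each gene in the 6 compared classes, with 95% counting intervals; black points are past 2-fold, dashed lines mark a ratio of 2-fold and the dotted line the median of all genes. Cst3 lies left of the lower dashed line in every panel except that of dendritic cell-like cells (-0.22).

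The inhibitor genes come first. Cst3 encodes cystatin C, the main secreted inhibitor of cysteine cathepsins. Microglia-like cells held 61117 CPM (95% interval 60955 to 61280) in the control-titled library and 5147 CPM (5074 to 5222) in the positive-titled library, an 11.9-fold lower level (log2 ratio -3.57, -3.59 to -3.55). It made up 6.11% of all UMIs of that class in the control-titled library and 0.515% in the positive-titled library. The difference ran through the cells and was not carried by a few. The median cell of the class held 62141 CPM (quartiles 46480 and 79151) in the control-titled library and 4674 CPM (3415 and 6663) in the positive-titled library, so the quartile ranges did not overlap.

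The clusters of microglia-like cells lay at different Cst3 levels. Cluster 3 held 65900 CPM, and the smaller control-titled clusters 7.1 (38 cells) and 7.3 (95 cells) held 18318 and 18464 CPM, all above the 5147 CPM of cluster 24. Monocyte or macrophage-like cells were lower in both libraries, at 8863 CPM and 2405 CPM (log2 ratio -1.88, -1.91 to -1.85). Their 3 main control-titled clusters held 8606 to 10166 CPM and their 8 positive-titled clusters 1847 to 2781 CPM, with no overlap between the libraries.

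Dendritic cell-like cells were the class in which Cst3 differed least, with 29841 CPM and 25694 CPM (log2 ratio -0.22, -0.25 to -0.18). They ranked second for Cst3 in the control-titled library and first in the positive-titled library. They too came from largely different sub-clusters of cluster 15 in each library. The remaining classes were lower in the positive-titled library. Oligodendrocyte-like cells held 1526 and 329 CPM (log2 ratio -2.21), endothelial cell-like cells 4328 and 981 CPM (-2.14) and T cell-like cells 2979 and 991 CPM (-1.59). Over the whole library Cst3 was at 15259 and 1304 CPM, and the part of free RNA in the difference of each class was not tested. The estimated share of free RNA was 7.36% and 17.3% in oligodendrocyte-like cells and 8.48% and 15.8% in endothelial cell-like cells. Under the alternatives their ratios lay between -2.47 and -1.53 and between -2.28 and -1.85. Endothelial cell-like cells came from different clusters too, since all 74 of the positive-titled library lay in cluster 5.6, which held 2 of the 523 of the control-titled library, and this touches every result on that class. In T cell-like cells of the control-titled library 1 cell held 35.1% of the Cst3 UMIs, and the level without it was 1969 CPM.

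The order of Cst3 across the control-titled library ran from microglia-like and dendritic cell-like cells to astrocyte-like (14687 CPM), neuron-like (9635 CPM) and monocyte or macrophage-like cells. Oligodendrocyte-like cells were last. Neighbours in this order had counting intervals that did not overlap, apart from fibroblast-like cells (6358 CPM) and smooth muscle cell-like cells (6212 CPM). The place of neuron-like cells is uncertain. Free RNA was estimated at 47.0% in them, where the whole library held Cst3 at 15259 CPM. Markers of oligodendrocytes stood there at 23.9% of their own-class level, those of astrocytes at 10.8% and those of microglia at 9.50%. Astrocyte-like clusters varied among themselves, from 4515 to 25187 CPM. Of all Cst3 UMIs in the control-titled library 69.7% lay in microglia-like cells, and in the positive-titled library 41.6% lay in carcinoma-like cells, although their level was only 784 CPM. The ratio of Cst3 to Ctss UMIs, which needs no scaling by the class sum, was 4.02 in microglia-like cells of the control-titled library and 0.32 in those of the positive-titled library. In the same order it was 1.91 and 0.233 in monocyte or macrophage-like cells.

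Cst7 encodes cystatin F, which is sorted to endosomes and lysosomes of immune cells and inhibits cathepsin C among others. Microglia-like cells held 14.2 CPM (11.8 to 16.9) in the control-titled library and 361 CPM (342 to 381) in the positive-titled library. This 25.4-fold higher level (log2 ratio 4.67, 4.41 to 4.95) was in the opposite direction to that of Cst3 in the same cells. At least 1 Cst7 UMI was found in 2.87% of the microglia-like cells of the control-titled library (median depth 3243 UMIs) and in 54.0% of those of the positive-titled library (4894 UMIs). Oligodendrocyte-like cells, which should lack it, had 0.253% (6189.5 UMIs) and 1.43% (4795 UMIs). With every cell thinned to 1000 UMIs, the microglia-like shares were 0.885% and 22.8%.

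The cells with Cst7 were spread over cluster 24, since the cell with the most held 2.07% of the class's Cst7 UMIs. In the same library T cell-like cells (135 CPM) and monocyte or macrophage-like cells (28.0 CPM) held less Cst7 than this cluster. The 8 T cell markers reached 0.443% of their T cell-like level in microglia-like cells of the positive-titled library. In T cell-like cells Cst7 was at 157 CPM (111 to 216) and 135 CPM (116 to 156), which did not differ beyond counting error (log2 ratio -0.23, -0.73 to 0.32). NK cell-like cells, a group of 25 and 45 cells and therefore not compared, held 208 and 336 CPM, the latter with an interval (274 to 407) that overlapped that of cluster 24. Among monocyte or macrophage-like clusters of the positive-titled library Cst7 ran from 5.47 CPM in cluster 25.5 to 110 CPM in cluster 25.3. The control-titled monocyte or macrophage-like level of 17.7 CPM fell to 3.63 CPM without 1 cell that held 16 of the 20 UMIs.

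**Figure D3:**
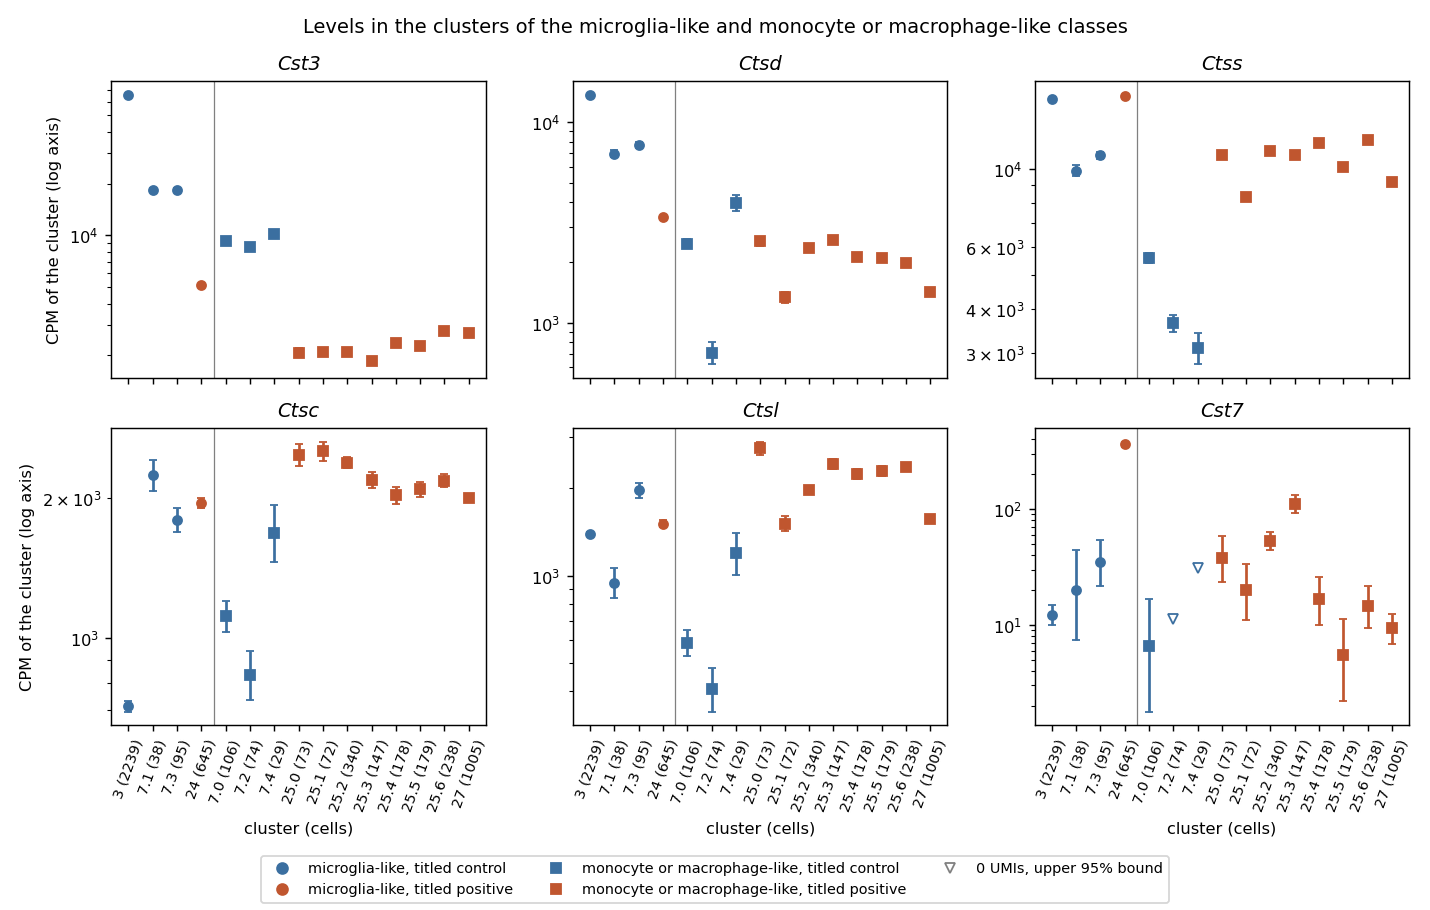
CPM on log axes of 6 genes in each cluster of the microglia-like (circles) and monocyte or macrophage-like (squares) classes, with the number of cells in brackets, colours for the titled libraries and bars for 95% counting intervals. The Cst3 levels of the positive-titled clusters (1847 to 5147 CPM) all lie under those of the control-titled clusters (8606 to 65900 CPM).

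Ctsd encodes cathepsin D, the main aspartic protease of lysosomes, which cystatins do not inhibit. Its level in microglia-like cells was 13044 CPM (12969 to 13119) in the control-titled library and 3352 CPM (3292 to 3412) in the positive-titled library, 3.89-fold lower (log2 ratio -1.96, -1.99 to -1.93). Its median cell held 12096 CPM (quartiles 8903 and 15979) in the former and 1976 CPM (1042 and 3957) in the latter. Cluster 3 held 13673 CPM, clusters 7.1 and 7.3 held 6974 and 7703 CPM, and cluster 24 held 3352 CPM. In monocyte or macrophage-like cells Ctsd was at 2192 and 1906 CPM (log2 ratio -0.20), with cluster levels that overlapped between the libraries. Thinning and subtraction of free RNA at the estimated share turned this to 0.02 and 0.09. The other 4 classes lay between -0.72 (T cell-like) and -0.25 (oligodendrocyte-like). With free RNA subtracted at the estimated share, the direction of Ctsd turned in dendritic cell-like (-0.70 to 5.72), endothelial cell-like (-0.29 to 0.37) and oligodendrocyte-like cells (-0.25 to 0.29), and the endothelial cell-like ratio kept its direction in 5 of 10 alternatives. In control-titled dendritic cell-like cells the amount subtracted exceeded the Ctsd level, so the 0.5 counts added to each sum set the size of 5.72. Microglia-like cells were first in both libraries, and dendritic cell-like cells were last, at 323 and 199 CPM.

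Ctss encodes cathepsin S, which stays active at neutral pH and cleaves the invariant chain Cd74 during antigen presentation. It was highest in microglia-like cells, at 15212 CPM (15131 to 15293) in the control-titled library and 16090 CPM (15959 to 16221) in the positive-titled library, a log2 ratio of 0.08 that was -0.06 with doublets kept. The median cell held 14931 and 15804 CPM, with quartile ranges that overlapped. Monocyte or macrophage-like cells held 4629 CPM and 10327 CPM, 2.23-fold higher in the positive-titled library (log2 ratio 1.16, 1.12 to 1.20). Their control-titled clusters lay at 3089 to 5589 CPM and their positive-titled clusters at 8285 to 12051 CPM. Dendritic cell-like cells ranked next in both libraries, at 1961 and 3816 CPM (log2 ratio 0.96, 0.83 to 1.09).

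In T cell-like cells Ctss was at 649 and 1303 CPM (log2 ratio 1.00, 0.77 to 1.25), at the edge of the 2-fold threshold. That higher level did not hold when the estimated share of free RNA was subtracted, which gave -7.94. The amount subtracted exceeded the level in the positive-titled cells, so the 0.5 counts added to each sum set the size of this value. In oligodendrocyte-like cells it was at 190 and 363 CPM. A Ctss UMI was found in 66.1% and 72.5% of oligodendrocyte-like cells, a class that should lack it, at median depths of 6189.5 and 4795 UMIs. Shares of cells with a UMI were therefore not used for Ctss. Microglia-like cells held 85.4% of all Ctss UMIs in the control-titled library, and monocyte or macrophage-like cells held 63.4% in the positive-titled library.

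Ctsl encodes cathepsin L, an endopeptidase made in most tissues. Carcinoma-like cells held 82.1% of all Ctsl UMIs of the positive-titled library, at a level of 3247 CPM (3234 to 3261). Their 4 clusters ran from 1996 to 4006 CPM. Monocyte or macrophage-like cells followed at 1963 CPM, against 594 CPM in the control-titled library, 3.30-fold higher (log2 ratio 1.72, 1.61 to 1.84). The median cell of that class held 286 CPM (quartiles 0 and 811) in the control-titled library and 1616 CPM (1057 and 2419) in the positive-titled library. Microglia-like cells were first in the control-titled library, and hardly differed between them, at 1413 and 1507 CPM (log2 ratio 0.09, 0.05 to 0.14).

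Ctsl was past 2-fold higher in T cell-like and dendritic cell-like cells too. T cell-like cells held 107 CPM (70.2 to 157) and 1244 CPM (1186 to 1304), an 11.4-fold higher level (log2 ratio 3.51, 2.98 to 4.15). Within them cluster 12.1 held 2461 CPM in the positive-titled library, cluster 12.3 held 826 CPM and cluster 12.2 held 347 CPM. Dendritic cell-like cells held 79.5 and 433 CPM (log2 ratio 2.43, 1.88 to 3.05). Their estimated share of free RNA was 11.7% and 18.6%, where the whole library held Ctsl at 738 and 2734 CPM. Only 9 of the 10 alternatives gave a Ctsl ratio in that class, and the part of free RNA in it was not tested. With free RNA subtracted at the estimated share, 0 of the 10 genes were past 2-fold higher in T cell-like cells. The log2 ratio of Ctsl in monocyte or macrophage-like cells lay between 1.70 and 1.87 under all 10 alternatives, that one included. Ctsl in endothelial cell-like cells was at 722 and 1278 CPM (log2 ratio 0.82, 0.70 to 0.95), and in oligodendrocyte-like cells at 422 and 638 CPM (0.60). With free RNA subtracted at the estimated share the oligodendrocyte-like ratio turned to -0.99 and the microglia-like ratio to -0.26.

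Ctsb encodes cathepsin B, which acts as an endopeptidase and as a carboxydipeptidase. It was past 2-fold in 0 of the 6 classes. Microglia-like cells held 2821 and 3196 CPM (log2 ratio 0.18) and monocyte or macrophage-like cells 2845 and 2284 CPM (-0.32). The intervals of both classes overlapped in the control-titled library, so their order there is not given by the counts. Oligodendrocyte-like cells were at 529 and 619 CPM (0.23), endothelial cell-like cells at 295 and 400 CPM (0.44), dendritic cell-like cells at 331 and 304 CPM (-0.13, -0.49 to 0.24) and T cell-like cells at 256 and 495 CPM (0.94, 0.57 to 1.35). The T cell-like ratio turned to -1.12 with free RNA subtracted at the estimated share, and the dendritic cell-like ratio turned to 0.72 with each cell named by its own markers. Within the monocyte or macrophage-like class, cluster 7.4 held 6303 CPM and cluster 7.2 held 1606 CPM in the same library.

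Ctsk encodes cathepsin K, a collagen-degrading protease best known from bone-resorbing cells. Its levels in the brain classes were low and ordered unlike those of the other cathepsin genes. Fibroblast-like cells of the control-titled library held 209 CPM (172 to 252) and oligodendrocyte-like cells 101 CPM (97.4 to 105). Microglia-like cells held 5.62 CPM and 5.54 CPM (log2 ratio 0.00, -0.85 to 0.75). Oligodendrocyte-like cells contributed 88.2% of the 2775 Ctsk UMIs of the control-titled library.

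In oligodendrocyte-like cells of the positive-titled library Ctsk was at 14.1 CPM (10.8 to 18.0), 7.15-fold lower (log2 ratio -2.84, -3.23 to -2.49). A Ctsk UMI was found in 37.1% of these cells in the control-titled library and 6.54% in the positive-titled library, at median depths of 6189.5 and 4795 UMIs. The shares in microglia-like cells, taken as background, were 1.64% (3243 UMIs) and 2.95% (4894 UMIs). Thinned to 1000 UMIs, the oligodendrocyte-like shares were 8.14% and 0.951%. The control-titled clusters 2 and 4 held 78.4 and 133 CPM, and cluster 30, with 840 of the 841 cells of the positive-titled library, held 14.1 CPM. The 8 fibroblast markers summed to 24.2 CPM in the control-titled oligodendrocyte-like cells, 0.136% of their fibroblast-like level.

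Most Ctsk UMIs of the positive-titled library came from very few cells. Of 4173 UMIs, 6 cells with 1013, 946, 671, 396, 310 and 105 UMIs held 3441, or 82.5%. The next cell of that library held 18 UMIs and the highest of the control-titled library held 16. The 6 cells had 10074 to 28636 UMIs each. Cluster 16.3, which matched markers of more than 1 class and was not named, held 5 of them, and the other lay in the neutrophil-like cluster 22. That cell held 946 of the 952 Ctsk UMIs of the neutrophil-like class, whose level was 604 CPM with it and 3.86 CPM without it.

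**Figure D4:**
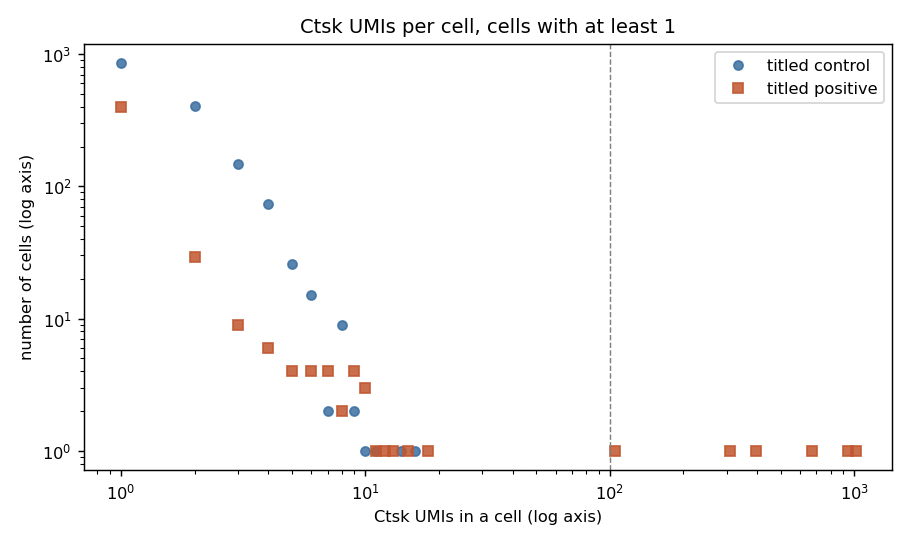
Number of cells (log axis) at each count of Ctsk UMIs per cell (log axis) in the 2 titled libraries, cells with 0 left out; the dashed line marks 100 UMIs. The positive-titled library has 6 cells to the right of the line, at 105 to 1013 UMIs, and all others lie at 18 or fewer.

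The 6 Ctsk-rich cells were set beside a short list of genes chosen after their values had been seen, so this is a description. Ctsk was at 32307 CPM in their sum. Acp5, the tartrate-resistant acid phosphatase, was at 20214 CPM, where the monocyte or macrophage-like class held 322 CPM. Mmp9, a gelatinase, was at 10074 CPM against 32.0 CPM in that class, and Atp6v0d2, a subunit of the proton pump, at 2056 CPM against 17.7 CPM. Acp5, Mmp9, Atp6v0d2 and Dcstamp (394 CPM) had UMIs in all 6 cells, and Ocstamp (1343 CPM) and Oscar (338 CPM) in 5 of 6. Dcstamp and Ocstamp encode membrane proteins that take part in cell fusion. Lyz2, the lysozyme of monocytes and macrophages, was at 235 CPM in them, where that class held 9369 CPM, and Epcam at 28.2 CPM against 278 CPM in the other cells of the library. That Epcam level stands at the floor of 3 counts. Krt8, another carcinoma marker, was at 441 CPM against 1901 CPM in the other cells and 305 CPM in the monocyte or macrophage-like class. The neutrophil marker S100a8 was at 770 CPM against 2251 CPM in the other cells. Krt8 and S100a8 had UMIs in all 6 cells. Among the other cathepsin genes, Ctsb was at 1390 CPM against 821 CPM in the other cells of the library and Ctsz at 1343 CPM against 615 CPM, while Ctsd was at 554 CPM against 729 CPM, Ctsl at 836 CPM against 2736 CPM and Ctss at 460 CPM against 2401 CPM. Ctsc and Ctsh were each at 75.1 CPM, against 462 and 334 CPM. Cst7 had 0 of 106510 UMIs, read against the floor of 3 counts, which stands at 28.2 CPM here.

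The exopeptidases remove residues from the ends of proteins. Ctsc encodes cathepsin C, or dipeptidyl peptidase 1, which activates the granule serine proteases of immune cells. Microglia-like cells held 839 CPM (820 to 858) in the control-titled library and 1948 CPM (1903 to 1994) in the positive-titled library, 2.32-fold higher (log2 ratio 1.21, 1.17 to 1.26). The median cell held 630 CPM (quartiles 310 and 1111) and 1682 CPM (1151 and 2478). A level of this size was also present in the control-titled library. Clusters 7.1 and 7.3 of the control-titled library, at 2238 and 1796 CPM, lay close to the 1948 CPM of cluster 24, and cluster 3 alone was low, at 714 CPM.

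Monocyte or macrophage-like cells were first for Ctsc in both libraries, at 1107 and 2158 CPM (log2 ratio 0.96, 0.88 to 1.05), just under the 2-fold threshold. In oligodendrocyte-like cells Ctsc was at 13.2 and 63.6 CPM (log2 ratio 2.27, 2.04 to 2.51). Its interval overlapped that of ependymal cell-like cells in the control-titled library and that of carcinoma-like cells in the positive-titled library. Monocyte or macrophage markers moved with it. They summed to 57.6 CPM in the control-titled oligodendrocyte-like cells and 497 CPM in those of the positive-titled library, with 1 of 12 at 0 in each, or 0.163% and 3.12% of their own-class level. With free RNA subtracted at the estimated share, 0 of the 10 genes were past 2-fold higher in that class. Endothelial markers also stood higher there, at 137 and 9884 CPM, of which 81.0 and 9860 CPM came from Ly6c1 alone.

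Ctsh encodes cathepsin H, an aminopeptidase. It was at 883 and 1004 CPM in microglia-like cells (log2 ratio 0.18) and at 561 and 950 CPM in monocyte or macrophage-like cells (0.76, 0.65 to 0.88). The direction differed between classes. Ctsh was higher in the positive-titled library in T cell-like cells (28.9 and 156 CPM, log2 ratio 2.33, 1.36 to 3.76) and oligodendrocyte-like cells (15.1 and 55.8 CPM, 1.89, 1.65 to 2.12). Values were lower there in dendritic cell-like cells (787 and 449 CPM, -0.81, -1.08 to -0.54) and endothelial cell-like cells (473 and 291 CPM, -0.70, -0.94 to -0.47), without passing 2-fold. The control-titled endothelial cell-like clusters ran from 172 to 653 CPM, a range that holds the positive-titled level. The T cell-like level of the control-titled library rests on 7 UMIs, 4 of them in 1 cell, and was 12.6 CPM without that cell.

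Ctsz encodes cathepsin Z, a carboxypeptidase also called cathepsin X. Microglia-like cells were first in both libraries, at 2053 CPM and 2869 CPM (log2 ratio 0.48, 0.45 to 0.52), followed by monocyte or macrophage-like cells at 1350 and 1802 CPM (0.42, 0.34 to 0.49) and dendritic cell-like cells at 580 and 934 CPM (0.68, 0.44 to 0.93). T cell-like cells held 82.6 and 324 CPM (1.94, 1.33 to 2.70), the only class past 2-fold. With doublets kept this ratio was 0.99, under the threshold, and 9 of the 10 alternatives gave a value. The control-titled T cell-like level rests on 20 UMIs, and free RNA was estimated at 57.4% in the positive-titled T cell-like cells. Within the microglia-like class cluster 7.3 held 2949 CPM and cluster 24 held 2869 CPM, against 1967 CPM in cluster 3.

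Over the 20 sums of a class and library with at least 50 cells, the levels of some of these genes went together. As Pearson's r of log2(CPM + 1), a description over sums that share libraries and depth, Ctss and Ctsz reached 0.92, Ctsc and Ctss 0.88, Ctsc and Ctsz 0.86 and Ctsb and Ctsd 0.84. Among 14869 genes, the pattern most like that of Ctss was that of Fcgr1, an Fc receptor (0.985), then Aif1 (0.969) and Cd300c2 (0.955). Ctsz was nearest to Gusb (0.955), the lysosomal beta-glucuronidase, Grn (0.954), which encodes progranulin, and Slc15a3 (0.945). Ctsb was nearest to AI463229 (0.925), Lgmn (0.922), the lysosomal legumain, and C1qc (0.880). Ctsd was nearest to Pla2g15 (0.917), Trem2 (0.908) and Lgmn (0.906), and Ctsc to Ccrl2 (0.933), Slc15a3 (0.928) and Gsdmd (0.928). Cst7 was nearest to another cathepsin gene, Ctse (0.903), then Ly9 (0.899) and Rac2 (0.882). For Cst3 the nearest were Tmem185b (0.891), Grk3 (0.861) and Vps9d1 (0.835), and for Ctsh Ifi44l (0.874), Map3k8 (0.863) and Tor3a (0.854). Ctsl (Rab11fip5 at 0.838, Spats2 at 0.819, Nt5dc2 at 0.817) and Ctsk (Piga at 0.704, Gm13341 at 0.692, Scp2-ps2 at 0.671) had the least similar neighbours. For Ctsk, 1 of the 20 sums is that of neutrophil-like cells at 604 CPM, which 1 cell sets.

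The rest of the lysosomal system was followed through 92 genes in 5 lists, of which 85 were listed in the files. In microglia-like cells 8 of the 60 tested were past 2-fold higher, where 8.87% of all genes were, and 10 lower, where 22.2% were, with a median log2 ratio of -0.19 against -0.33 for all genes. Of the 28 lysosomal hydrolases 2 were higher and 5 lower. Arsb, arylsulfatase B, was at 900 and 78.7 CPM (log2 ratio -3.51), lower as Cst3 and Ctsd were. Gla, alpha-galactosidase A, was at 12.5 and 50.1 CPM, and Scpep1, a serine carboxypeptidase, at 68.9 and 180 CPM (1.39). Of the 16 membrane and transport genes tested, 1 was higher, the tetraspanin Cd63 (712 and 1890 CPM, 1.41), and 1 lower, the cholesterol transporter Npc1 (-1.41). The sorting receptor Sort1 (-1.12) and the transcription factor Tfe3 (-1.05) were among 3 of 8 sorting and transcription genes that were lower, and 0 of 8 were higher. Cd74, the invariant chain that Ctss cleaves, was at 293 and 18376 CPM (5.97).

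Other members of the cathepsin and cystatin families were measured in the same cells. Of the 6 tested in microglia-like cells 3 were higher and 1 lower. Ctse, an aspartic protease, was at 20.1 and 101 CPM (2.33), Ctsf, a cysteine cathepsin, at 287 and 50.4 CPM (-2.51), and Ctsa, the protective protein of lysosomes, at 1224 and 683 CPM (-0.84). The stefin gene BC100530 had 0 UMIs in the control-titled microglia-like cells and 40.7 CPM in those of the positive-titled library. Neutrophil markers summed to 817 CPM in these positive-titled cells, 0.427% of their neutrophil-like level, with 0 of 11 at 0. The part of neutrophil RNA in the BC100530 level was not tested. Stefins are cystatins of the cytoplasm, and the cluster that holds BC100530, Stfa2, Stfa2l1 and Stfa3 has near-identical copies, so the split of reads among them is uncertain. In neutrophil-like cells of the positive-titled library these 4 genes stood at 13327, 2317, 2563 and 1129 CPM. The ranks that follow cover named classes with at least 50 cells in a library, which leaves out NK cell-like cells and mixed or unnamed clusters. Ctsg was highest there too (447 CPM), Ctsw in T cell-like (558 CPM) and Ctso in astrocyte-like cells (179 CPM) of the control-titled library. Ctsg was among the leading genes of the unnamed cluster 16.1 and Ctsw among those of the mixed cluster 12.4, and neither cluster was ranked. Cstb was highest in monocyte or macrophage-like (1129 CPM) and Fetub in carcinoma-like cells (42.4 CPM) of the positive-titled library.

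In monocyte or macrophage-like cells 15 of the 70 genes tested were past 2-fold higher, where 9.78% of all genes were, and 7 lower, where 13.6% were, with a median log2 ratio of 0.19 against -0.15 for all genes. With free RNA subtracted at the estimated share, 8 were higher. The count of higher genes held 6 of 10 other family members and 4 of 5 substrates and effectors, and 1 of 28 hydrolases. Neutrophil markers summed to 2034 CPM in this class of the positive-titled library, 1.06% of their neutrophil-like level. Npc2, a cholesterol carrier, was at 1497 and 3047 CPM (1.03), Gla at 15.9 and 66.9 CPM (2.03) and the transcription factor gene Tfec at 9.74 and 49.8 CPM (2.29). Prtn3, a granule protease that cathepsin C activates, was at 7.97 and 114 CPM (3.76). Arsb was at 190 and 9.86 CPM (-4.26), Ctsf at 58.4 and 12.1 CPM (-2.28), Sort1 at 32.8 and 8.64 CPM (-1.94) and Smpd1, acid sphingomyelinase, at 51.4 and 19.6 CPM (-1.40). Cd74 hardly differed (13510 and 14088 CPM, 0.06).

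In the other 4 classes 32 to 61 genes of these lists could be tested. Oligodendrocyte-like cells had 5 higher and 6 lower of 61 (11.6% and 15.5% of all genes), endothelial cell-like cells 4 and 7 of 54 (5.28% and 14.7%), T cell-like cells 8 and 5 of 43 (12.6% and 8.21%), and dendritic cell-like cells 2 and 5 of 32 (14.3% and 6.34%). Their medians were -0.34, -0.18, 0.23 and 0.05, against -0.22, -0.23, 0.08 and 0.22 for all genes. Cd63 was higher in oligodendrocyte-like (437 and 1491 CPM, 1.77), T cell-like (66.1 and 721 CPM, 3.40) and dendritic cell-like cells (119 and 329 CPM, 1.45). Cd74 was higher in oligodendrocyte-like (4.47), T cell-like (5.73) and endothelial cell-like cells (4.71) and lower in dendritic cell-like cells (-1.06). Lipa, lysosomal acid lipase, was higher in endothelial cell-like cells (126 and 359 CPM, 1.51), and Ctse lower in T cell-like cells (174 and 58.7 CPM, -1.57). In endothelial cell-like cells of the positive-titled library BC100530 was at 981 CPM against 0 UMIs, and the neutrophil markers summed to 10132 CPM, 5.29% of their neutrophil-like level, with 0 of 11 at 0.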

How the data were processed

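Single-cell RNA libraries of Balb/c mouse brain were made with a Singleron GEXSCOPE kit according to the labels' protocols. Values are the deposited whole-number counts of UMIs for each gene in each barcode, not normalized by the authors. Cell Ranger (no version) and GRCm38 are named in the submitters' processing notes. How cells were called and whether strand was used is not given in the sources used here. Genes and gene lists were chosen with earlier results of these data known.

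A minimum of 200 genes and a maximum of 20% mitochondrial UMIs per barcode left out 11 of 10417 (control-titled) and 5 of 10842 (positive-titled). Doublets called with Scrublet (600 and 300 barcodes) were removed. Leiden clusters (resolution 1, 30 principal components, 2000 variable genes without the 10 genes, 15 neighbours, scanpy 1.11.5) were named from 21 marker lists. A name needed a score of at least 1.5 over the lower-quartile cluster and at least 3 markers in at least 10% of cells. These thresholds were set after clusters had been seen, and mixed or unnamed clusters held 4.01% and 1.77% of kept cells.

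Counts were summed per class and library and given as CPM with exact Poisson 95% intervals, shares of cells with exact Clopper-Pearson intervals, and log2 ratios with a pseudocount of 0.5 counts and conditional exact binomial intervals (scipy 1.17.1). The libraries held 55657687 and 98141261 UMIs, and class sums ran from 242006 to 24148112 UMIs. A sum of 100 counts had an interval of 81.4 to 122 counts. A zero count was read against a floor of 3 counts. The ratio code was checked on simulated counts. Genes named from the lists were, per class, the 2 highest and 2 lowest ratios of each list, beside family members of at least 10 CPM and the 3 genes most like each of the 10. Alternatives changed doublet removal, resolution, naming, scaling, free RNA, depth and filters. Coordinates are from GENCODE M21 on GRCm38.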

Additional observations from a re-analysis of the deposited data

Results flagged for a closer look

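Ctsh, the gene of the aminopeptidase cathepsin H, differed in direction between cell classes under the same contrast. Its log2 ratio of positive-titled over control-titled was 2.33 in T cell-like, 1.89 in oligodendrocyte-like, 0.76 in monocyte or macrophage-like and 0.18 in microglia-like cells. It was -0.81 in dendritic cell-like and -0.70 in endothelial cell-like cells. All 6 counting intervals left out 0. With 1 library per group the difference between the classes was not tested. With doublets kept, the T cell-like ratio was 0.98. The dendritic cell-like and endothelial cell-like ratios stayed below 0 in 10 of 10 alternatives. Both classes came from largely different clusters in each library. The endothelial cell-like level of 291 CPM lay within the 172 to 653 CPM of the control-titled clusters. In dendritic cell-like cells the marker Cd209a was at 2616 and 13.9 CPM. A difference in the kinds of cell within a class cannot be told apart from a difference within 1 kind. With free RNA subtracted at the estimated share, Ctsh gave no value in T cell-like and oligodendrocyte-like cells, and 0 genes were past 2-fold higher in either class.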

How the results depend on the processing

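No paired analysis was possible because each group is 1 library, and leaving out a replicate was not possible for the same reason. In microglia-like cells 2 genes were higher and 2 lower under each alternative, and Cst3 kept its direction in 10 of 10 alternatives in all 6 classes (-3.70 to -3.03 in microglia-like cells). The Cst3 ratio in T cell-like cells shrank to -0.39 with free RNA subtracted at the estimated share. The same subtraction turned Ctss (to -7.94), Ctsc (0.90 to -6.78), Ctsb (0.94 to -1.12) and Cst7 (-0.23 to 0.55) in T cell-like cells. It also turned Ctsl (0.60 to -0.99), Ctsz (0.53 to -0.31) and Ctsd (-0.25 to 0.29) in oligodendrocyte-like cells, Ctsd (-0.70 to 5.72) in dendritic cell-like cells, Ctsd (-0.29 to 0.37) and Ctsz (0.23 to -0.27) in endothelial cell-like cells, Ctsl (0.09 to -0.26) in microglia-like cells and Ctsd (-0.20 to 0.09) in monocyte or macrophage-like cells. For Ctss and Ctsc in T cell-like cells of the positive-titled library, the amount subtracted exceeded the level and left no counts. The same held for Ctsd in dendritic cell-like cells of the control-titled library. The sizes of -7.94, -6.78 and 5.72 are therefore set by the pseudocount and not by counts. In general the cause of a moved value was not tested.

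Cathepsin and cystatin genes past 2-fold higher numbered 4 in T cell-like cells, but 1 with doublets kept, 0 with free RNA subtracted at the estimated share and 2 with cells thinned to 1000 UMIs. In dendritic cell-like cells 1 became 2 with free RNA subtracted at 5%, 0 thinned and 2 by the mean of per-cell CPM. In endothelial cell-like cells 0 became 1 at resolution 2, at 10% mitochondrial UMIs, under both subtractions, thinned and by the per-cell mean. In oligodendrocyte-like cells 2 became 4 with doublets kept and 0 with the estimated share subtracted. Those past 2-fold lower moved from 1 to 2 with doublets kept and 0 with each cell named by its own markers in T cell-like cells, and from 1 to 2 thinned in endothelial cell-like cells.

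Of the 92 listed genes, those higher in T cell-like cells went from 8 to 5 (doublets kept), 2 (estimated share) and 4 (thinned), and those lower from 5 to 2 (own markers), 2 (estimated share), 1 (thinned), 9 (no filter on counts) and 3 (per-cell mean). In dendritic cell-like cells 2 higher became 1 (own markers), 4 (the 10 genes among the variable genes), 4 (5% subtracted), 0 (thinned), 7 (no filter) and 4 (per-cell mean), and 5 lower became 3 (estimated share), 2 (thinned) and 9 (no filter). In endothelial cell-like cells 4 higher became 7 (resolution 2), 2 (own markers), 2 (thinned) and 12 (no filter), and 7 lower became 4 (thinned). In microglia-like cells 8 higher became 19 (no filter) and 10 lower became 6 (centred on the median of all genes). In monocyte or macrophage-like cells 15 higher became 8 (estimated share) and 7 (thinned). In oligodendrocyte-like cells 5 higher became 9 (doublets kept), 3 (estimated share), 2 (thinned), 18 (no filter) and 8 (centred), and 6 lower became 11 (thinned) and 3 (centred). Thinning leaves fewer UMIs and so fewer genes to test, and no filter adds genes. Depth limits Ctsk and Cst7 most, since each had under 50 UMIs in 3 of the 6 classes.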

Other observations

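The neutrophil-like cells, 202 in the positive-titled library and 10 in the control-titled library, could not be compared and were described in the positive-titled library only. Ctsl was at 1160 CPM in them (1107 to 1214), Ctsd at 474 CPM, Ctss at 669 CPM and Cst3 at 668 CPM. Cst7 was at 53.3 CPM, with 25 of its 84 UMIs in 1 cell, and 38.1 CPM without that cell. Carcinoma markers stood at 35.6% of their carcinoma-like level in these cells.

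In the positive-titled library a mixed cluster of 44 cells led by Col3a1, a collagen gene, held Ctsk at 499 CPM (437 to 569), none of it in the 6 Ctsk-rich cells. That cluster matched fibroblast markers best and smooth muscle cell markers next. Fibroblast-like cells of the control-titled library held 209 CPM.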
